A study of Mus musculus with 18 samples.

Results

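Macrophages are tissue phagocytes, and in the gut wall many of them are replaced from blood monocytes. The genes described here were Cd14, C1qa, C1qb, C1qc, Csf1r, Cd68, Mrc1, P2ry13, Adgre1 and Lyz2, chosen by name as macrophage and monocyte genes. All 10 were present in the table, which holds 10897 genes. They were followed in 18 RNA sequencing libraries of mouse colorectal tissue, 6 in each of 3 groups.

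By the sample characteristics, GF-AOMS mice were germ-free, carried colorectal cancer induced with AOM (azoxymethane, a carcinogen that causes colon tumours in mice) and were exposed to cigarette smoke. GF-AOM mice were germ-free with AOM-induced cancer and no smoke. Control mice were wild-type SPF (specific pathogen-free) animals with AOM-induced cancer. All mice were male C57BL/6J, aged 10 weeks. The labels do not give a single reading of the groups, because the treatment protocol calls Control a normal group and the growth protocol houses the mice in an SPF facility. Smoke sets GF-AOMS apart from GF-AOM under each reading, whereas germ-free state, AOM and other traits cannot be told apart in comparisons with Control. No label says that each library is a separate mouse, so the p-values cover only the spread among the samples as labelled, which may be technical.

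As background, the members cover several jobs of a macrophage. The receptor encoded by Csf1r binds the growth factors CSF1 and IL-34, on which macrophages depend for survival. Cd14 encodes the co-receptor that hands bacterial lipopolysaccharide to Toll-like receptor 4, and C1qa, C1qb and C1qc encode the chains of C1q, the recognition protein of the classical complement pathway. Mrc1 encodes the mannose receptor, Adgre1 an adhesion receptor used as a mouse macrophage marker, Cd68 a lysosomal glycoprotein, P2ry13 an ADP receptor and Lyz2 a secreted lysozyme. In bulk tissue, fewer cells of a type and less RNA per cell cannot be told apart.

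Start-site windows are shown for C1qb and C1qc, neighbours whose levels followed each other most closely, and for Mrc1 and P2ry13, the members with the smallest p in the smoke comparison. They are RefSeq sequences of GRCm38.p6, from 250 bases before to 50 bases after the start, written 5′ to 3′ on the gene's strand. Capitals mark GAGGAA or its reverse complement TTCCTC, the core letters of the PU box, which the macrophage transcription factor PU.1 recognises. The windows are chr4:136886151-136886450 (minus strand) for C1qb, chr4:136892865-136893164 (minus strand) for C1qc, chr2:14229164-14229463 (plus strand) for Mrc1 and chr3:59210833-59211132 (minus strand) for P2ry13.
C1qb: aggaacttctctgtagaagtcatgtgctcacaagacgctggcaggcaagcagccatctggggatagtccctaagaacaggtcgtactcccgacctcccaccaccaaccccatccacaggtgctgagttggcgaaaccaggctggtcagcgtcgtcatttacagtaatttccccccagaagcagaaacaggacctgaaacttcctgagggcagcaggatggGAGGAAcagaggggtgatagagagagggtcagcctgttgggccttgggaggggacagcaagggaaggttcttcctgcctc
C1qc: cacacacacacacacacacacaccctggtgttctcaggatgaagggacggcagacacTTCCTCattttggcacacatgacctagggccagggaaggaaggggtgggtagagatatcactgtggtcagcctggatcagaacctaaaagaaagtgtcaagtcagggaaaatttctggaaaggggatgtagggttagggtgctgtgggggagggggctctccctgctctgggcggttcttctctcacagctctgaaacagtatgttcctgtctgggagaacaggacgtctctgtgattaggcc
Mrc1: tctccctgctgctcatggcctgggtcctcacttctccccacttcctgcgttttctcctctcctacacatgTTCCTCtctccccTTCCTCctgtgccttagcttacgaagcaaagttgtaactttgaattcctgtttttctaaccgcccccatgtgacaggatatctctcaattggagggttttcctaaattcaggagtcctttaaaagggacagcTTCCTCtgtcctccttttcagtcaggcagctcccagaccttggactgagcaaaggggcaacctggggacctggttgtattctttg
P2ry13: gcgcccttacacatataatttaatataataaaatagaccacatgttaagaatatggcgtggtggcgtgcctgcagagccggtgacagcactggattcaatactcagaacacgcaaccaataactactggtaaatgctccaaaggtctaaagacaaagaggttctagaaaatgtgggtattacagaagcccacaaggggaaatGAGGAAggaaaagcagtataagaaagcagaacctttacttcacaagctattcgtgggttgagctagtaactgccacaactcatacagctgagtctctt
The match began 30 bases before the start in C1qb, 193 before in C1qc and 48 before in P2ry13, and Mrc1 held 3 matches, at 180, 167 and 35 bases before its start. Of the other windows looked at, that of Cd68 held 2 matches, 225 bases before the start and at the 30th base after it, and that of Lyz2 held none. Cd14 and Csf1r were left out of this search, and no window was given for C1qa and Adgre1. Over all 32851 windows of this length in the RefSeq table, 28.3% held the letters on either strand. The TATA box letters TATAAA were in none of the 6 windows looked at (Cd68, C1qb, C1qc, Lyz2, Mrc1, P2ry13) and in 13.6% of all windows. A match of letters shows no binding.

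The C1q genes lie next to each other on the minus strand of chromosome 4, within 18675 bases, with C1qb at 136880129 to 136886187, C1qc at 136889804 to 136893065 and C1qa at 136895917 to 136898803. Cd14 (36725067 to 36726798, minus strand) and Csf1r (61100598 to 61131134, plus strand) are on chromosome 18. Cd68 is on chromosome 11 (69664213 to 69666153, minus strand), Mrc1 on chromosome 2 (14229392 to 14332057, plus strand) and P2ry13 on chromosome 3 (59207892 to 59210882, minus strand). Adgre1 is on chromosome 17 (57358691 to 57483527, plus strand) and Lyz2 on chromosome 10 (117277331 to 117282321, minus strand). These are the table's positions and match build GRCm38. P2ry13 lies inside Med12l, which runs on the opposite strand, and Csf1r overlaps Hmgxb3 on the opposite strand. The libraries kept strand, but whether the authors counted by strand is not stated, so reads of such partners may not be separated.

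Levels are given as CPM, the counts of a gene relative to the library total, scaled by TMM (a factor that sets the bulk of genes equal between libraries). Levels of different genes are set against each other in FPKM (fragments scaled by gene length and library depth). Ratios of CPM between genes are not per length, so they are used to compare libraries and groups, not the levels of the genes. Totals ran from 48.95 M to 79.23 M counts per library, and the members had between 117 counts (P2ry13, Control replicate 4) and 69281 counts (Lyz2, Control replicate 2). Per length, the order of mean FPKM over the 18 libraries was Lyz2 at 418.3, C1qa at 86.1, C1qb at 81.1, C1qc at 39.1, Cd14 at 19.6, Cd68 at 12.2, Csf1r at 11.2, Adgre1 at 9.20, Mrc1 at 5.83 and P2ry13 at 1.84. Lyz2 stood above C1qa, C1qb above C1qc and Mrc1 above P2ry13 in all 18 libraries. Cd68 was above Csf1r in 11 of 18 libraries and Csf1r above Adgre1 in 13, so the order of these neighbours was not distinct. Lyz2 has a near-identical neighbour, Lyz1, and reads could be split between them. Lyz1 averaged 15.3 ± 13.2 CPM in GF-AOMS, 11.4 ± 6.82 in GF-AOM and 19.9 ± 21.1 in Control (SD, n = 6 each), well below the lowest Lyz2 value of 276.0 CPM, so Lyz2 values carry that uncertainty.

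Some libraries stand apart, and they touch many of the results. Control replicate 4 was the lowest of the 18 libraries for 9 of the 10 members, with Cd14 (lowest in Control replicate 6) as the exception. GF-AOM replicate 6 was the highest for 6 members, namely C1qa, C1qb, C1qc, Cd68, Adgre1 and P2ry13. Averaged over the members, log2 CPM deviated from the gene mean by 0.643 in GF-AOMS replicate 2, 0.891 in GF-AOM replicate 6 and -1.12 in Control replicate 4. The mean log2 CPM of Hoxa13 and Hoxb13, transcription factor genes of the distal colon (called here the Hox13 signal), was 4.472 to 6.821 in GF-AOMS, GF-AOM and Control replicates 1 and 2, against -1.695 to 1.507 in Control replicates 3 to 6. The labels place all libraries in 1 batch.

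**Figure D1:**
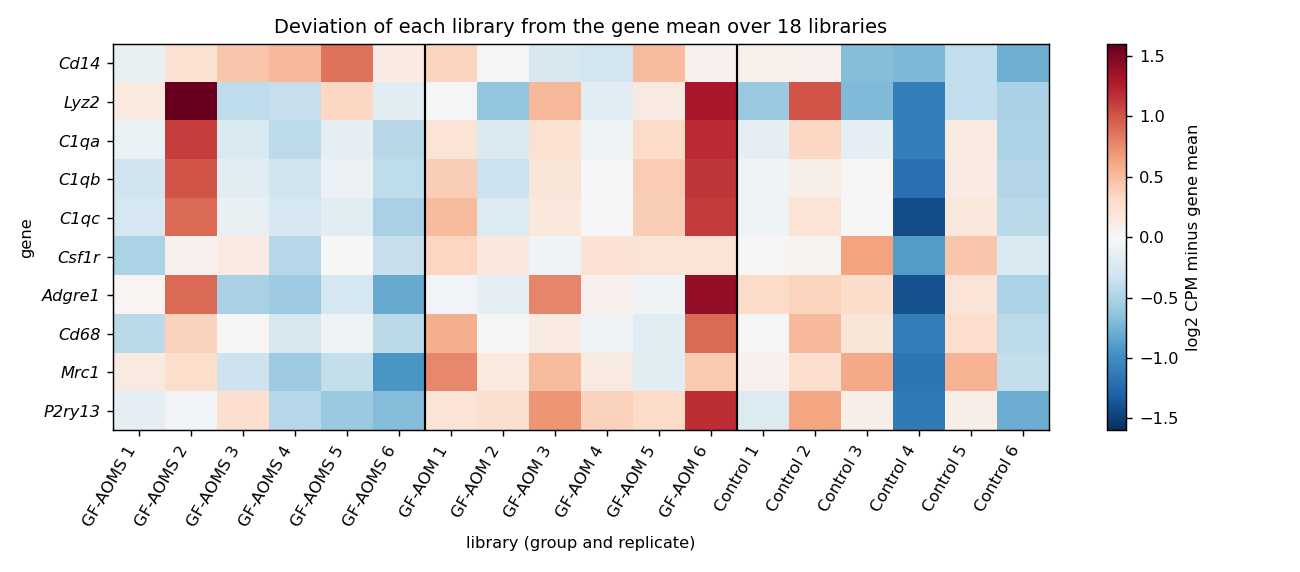
Colour gives the log2 CPM of a gene in a library minus that gene's mean over 18 libraries, with genes in rows and libraries in columns, GF-AOMS at the left, then GF-AOM and Control. GF-AOM replicate 6 was above the gene mean for all 10 genes, and Control replicate 4 was below it for all 10.

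The colours show that most members moved together from library to library, while Cd14 followed them less closely. Among the 45 pairs of members, Pearson's r of log2 CPM over 18 libraries ran from -0.07 to 0.99 with a median of 0.74, and 44 were positive. By a permutation test of r, adjusted over the 45 pairs, 34 had p under 0.05. With group means removed the median r was 0.72 and all 45 pairs were positive, but these values pool the deviations of all groups. Within single groups (n = 6 each) the covariation did not hold for every pair. In GF-AOM, r of Csf1r with the other members ran from -0.38 (Adgre1) to 0.59 (Cd14). For Csf1r it ran from 0.28 (Mrc1) to 0.85 (Cd68) in GF-AOMS, and from 0.2 (Cd14) to 0.98 (Mrc1) in Control. The chains of C1q were closest, with r = 0.99 and Spearman's rho = 0.98 between C1qb and C1qc (n = 18, adjusted permutation p = 5.6e-05 and 0.00011), and r = 0.98 without the 2 farthest libraries. C1qa over C1qb was 1.02 ± 0.0859 in GF-AOMS, 1.01 ± 0.0741 in GF-AOM and 1.03 ± 0.102 in Control (ratio of CPM, SD, n = 6 each). C1qc over C1qb was 0.839 ± 0.0485 in GF-AOMS, 0.872 ± 0.0424 in GF-AOM and 0.853 ± 0.0687 in Control. Group means of these ratios differed by less than their SD, while the level of C1qa itself differed 4.88-fold between the highest and the lowest library.

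Cd14 had r between -0.07 (with Mrc1) and 0.39 (with Lyz2) to the other 9 members, and none of these passed the adjusted permutation test (adjusted p from 0.14 to 0.79). The genes closest to Cd14 over the 18 libraries were Steap1 (r = 0.90), Nans (0.87), Apobec3 (0.85), Uchl5 (0.84) and Ilf2 (0.84), of which none is on the macrophage or monocyte lists. For the mean of the C1q genes they were Fcer1g (0.96), Cxcl16 (0.95), Ly86 (0.95), Ms4a7 (0.95) and Ms4a6c (0.94). P2ry13 was closest to the fractalkine receptor gene Cx3cr1 (0.88), Lyz2 to the immune adaptor gene Tyrobp (0.96), Adgre1 to Tifab (0.92), and both Csf1r (0.93) and Mrc1 (0.89) to the scavenger receptor gene Stab1. These r values were picked as the highest over all genes and describe these libraries.

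**Figure D2:**
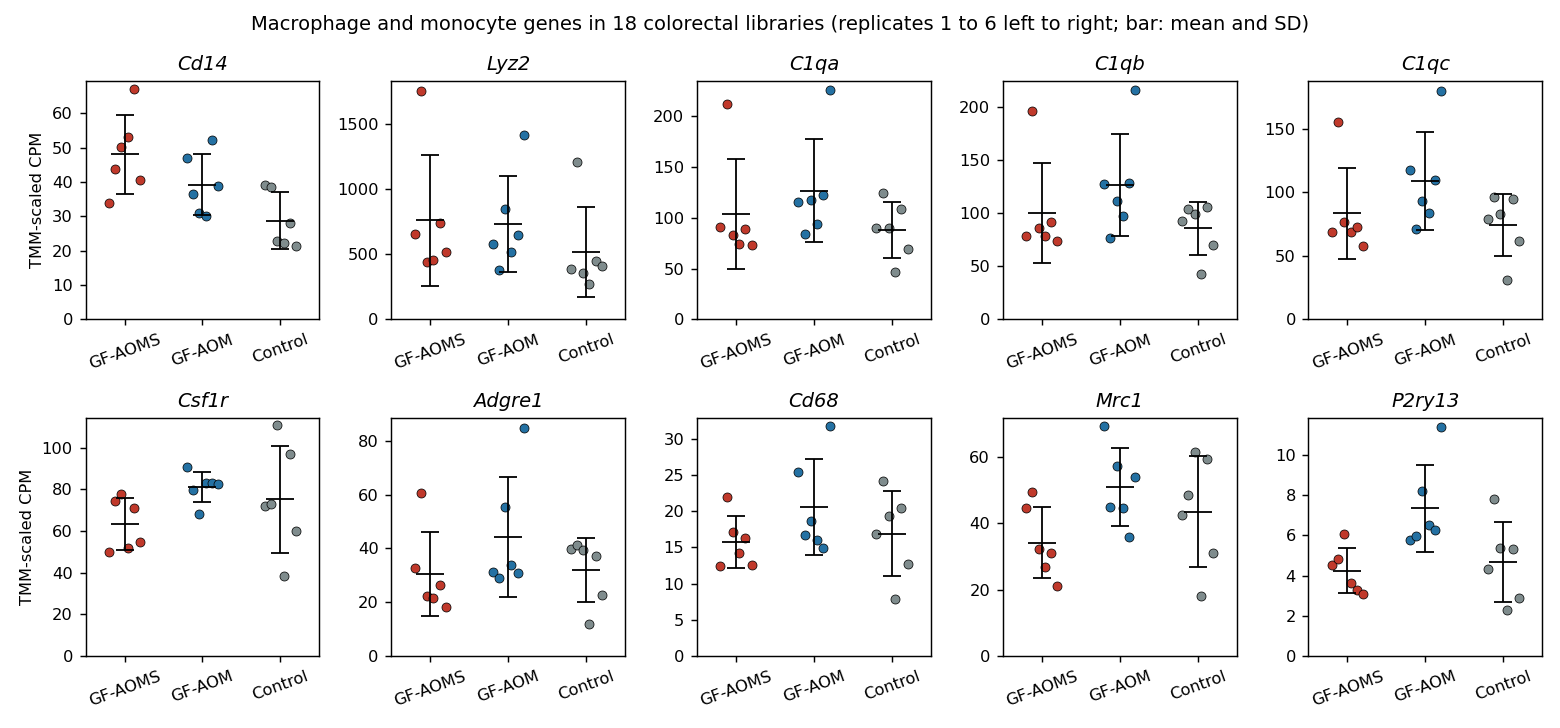
TMM-scaled CPM of each gene (vertical axis from 0) in the 6 libraries of GF-AOMS, GF-AOM and Control, with replicates 1 to 6 from left to right and a bar for mean and SD. Groups overlapped for every gene, and single high libraries such as GF-AOMS replicate 2 (Lyz2 at 1751.7 CPM) and GF-AOM replicate 6 (C1qa at 225.9 CPM) set much of the spread.

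GF-AOMS against GF-AOM is the comparison that differs by smoke. P2ry13 and Mrc1 were lower in the smoke-exposed libraries at an unadjusted p under 0.05, and 8 of the 10 members had lower fitted levels, but no member passed the test over all genes. Cd14 and Lyz2 had positive differences.

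P2ry13 had the smallest p of the members. It lay at 3.08, 4.08 and 6.05 CPM (lowest, median, highest) in GF-AOMS, against 5.79, 6.39 and 11.4 CPM in GF-AOM. Of the 6 GF-AOMS libraries 5 were below every GF-AOM library, and replicate 3 overlapped. The log2 difference was -0.80 (SE 0.27, 95% interval -1.37 to -0.23 by edgeR), the p ranked 12 among the 10897 genes from the smallest, and the adjusted p was 1.0.

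Mrc1 was at 21.2, 31.6 and 49.3 CPM in GF-AOMS, against 35.9, 49.5 and 69.2 CPM in GF-AOM. GF-AOMS libraries 3 to 6 were below all of GF-AOM, and replicates 1 and 2 were inside its range. The log2 difference was -0.58 (SE 0.26, interval -1.13 to -0.02, edgeR adjusted p = 1.0).

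Csf1r was at 50.0, 62.9 and 77.7 CPM in GF-AOMS, against 68.2, 82.6 and 90.6 CPM in GF-AOM, and all 6 GF-AOMS libraries were below the GF-AOM mean of 81.2. Its log2 difference was -0.36 (SE 0.19, edgeR adjusted p = 1.0). Adgre1 averaged 30.4 ± 15.6 CPM in GF-AOMS, against 44.2 ± 22.2 CPM in GF-AOM (SD, n = 6 each), with a log2 difference of -0.54 (SE 0.35), and Cd68 had -0.38 (SE 0.25), at 15.8 ± 3.59 CPM in GF-AOMS, against 20.6 ± 6.61 CPM in GF-AOM. For Adgre1 4 of 6, and for Cd68 3 of 6, GF-AOMS libraries were below all of GF-AOM. Single libraries moved these values, with Adgre1 at -0.24 and Cd68 at -0.21 without GF-AOM replicate 6, and Adgre1 at -0.86 without GF-AOMS replicate 2.

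The C1q genes had log2 differences of -0.29 (C1qa), -0.33 (C1qb) and -0.39 (C1qc), each with an SE of 0.28 to 0.30. C1qa lay at 73.1, 86.2 and 212.5 CPM in GF-AOMS, against 84.6, 116.4 and 225.9 CPM in GF-AOM. The highest library of each group stood far above its fellows. Without GF-AOMS replicate 2 the difference of C1qa was -0.63, and without GF-AOM replicate 6 it was -0.03.

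Cd14 ran the other way, at 34.0, 47.1 and 67.1 CPM in GF-AOMS, against 30.0, 37.6 and 52.2 CPM in GF-AOM. The groups overlapped, with 2 GF-AOMS libraries above all of GF-AOM, and the log2 difference was 0.30 (SE 0.20, edgeR adjusted p = 1.0), or 0.18 without GF-AOMS replicate 5. Lyz2 lay at 442.0, 587.4 and 1751.7 CPM in GF-AOMS, against 381.7, 613.8 and 1416.1 CPM in GF-AOM, a difference of 0.05 (SE 0.41). That sign was not stable, with -0.39 without GF-AOMS replicate 2 and 0.36 without GF-AOM replicate 6.

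By edgeR 0 of 10 members passed at an adjusted p of 0.05, beside 0.0% of the 10897 genes. At an unadjusted p under 0.05 there were 2 members, both lower, beside 1.09% of all genes (0.459% lower). The median of the members was -0.37, beside 0.01 over all genes, and 8 of 10 were negative, beside 46.4% of all genes. It was -0.63 without GF-AOMS replicate 2 and -0.19 without GF-AOM replicate 6. Most members varied together over the libraries, so these counts are not of independent genes. DESeq2 called 3 genes (0.0276%) and limma on log2(FPKM + 1) called 0, with no member among them.

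**Figure D3:**
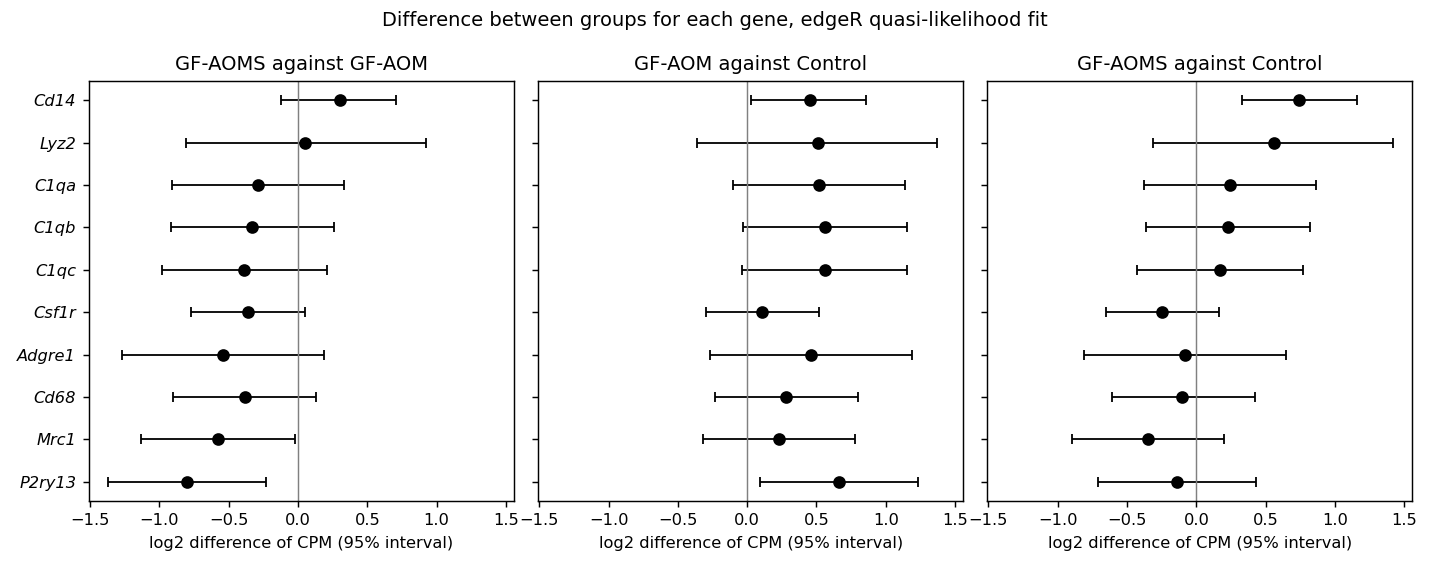
Log2 difference of CPM with its 95% interval from the edgeR fit, for the 10 genes in rows and the 3 comparisons in panels. Intervals of P2ry13 and Mrc1 lay below 0 in GF-AOMS against GF-AOM, those of Cd14 and P2ry13 above 0 in GF-AOM against Control, and that of Cd14 above 0 in GF-AOMS against Control, all before adjustment over genes.

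Other genes of macrophages and of linked pathways were read from lists, and not all of them are particular to macrophages. Genes of a list can vary together, as most members did, so counts of signs are not of independent genes. Of 20 measured other macrophage genes (27 listed), 19 had negative differences in GF-AOMS against GF-AOM, with a median of -0.27, and 0 passed. Cx3cr1 had 14.9 ± 3.66 CPM in GF-AOMS, against 22.9 ± 6.21 CPM in GF-AOM (-0.62, SE 0.24), and the inhibitory Fc receptor gene Fcgr2b had -0.45 (SE 0.25). Among 10 measured scavenger and lectin receptor genes, 9 were negative (median -0.29), with Stab1 at -0.40 (SE 0.20), and 0 passed. Among 19 genes of the CSF1 receptor axis, 10 were negative (median -0.02), with the macrophage transcription factor gene Maf at -0.46 (SE 0.18) and the CSF1R ligand gene Il34 at -0.26 (SE 0.17). Each of these had an adjusted p of 1.0.

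Of 14 measured genes of monocyte recruitment, 11 were negative (median -0.14). The highest difference of that list was that of the monocyte chemoattractant gene Ccl2, which averaged 7.89 ± 3.91 CPM in GF-AOMS, against 2.54 ± 1.63 CPM in GF-AOM (log2 difference 1.64, SE 0.40, edgeR adjusted p = 1.0), and the groups overlapped. The chemokine gene Cxcl12 had -0.44 (SE 0.19). Of 6 measured genes on the monocyte list 4 were positive, with the calcium-binding protein gene S100a4 at 0.81 (SE 0.35) and the clotting factor gene F13a1 at -0.48 (SE 0.26). Other cells of the tissue may express genes of that list, so the count describes the list and not monocytes. Of 15 genes of the lipopolysaccharide receptor pathway, in which Cd14 acts, 8 were positive (median 0.01), with Il1b at 0.68 (SE 0.49) and the receptor gene Tlr4 at -0.14 (SE 0.16). Of 17 other complement genes 10 were negative (median -0.06), of 21 lysosome genes 16 (median -0.06) and of 8 purinergic genes 6 (median -0.09). No gene of these lists passed.

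Markers of some other cell types also had differences mostly of 1 sign in the smoke comparison, while other lists were mixed. Of 10 pan-leukocyte genes 6 were negative (median -0.02), and of 10 measured T and NK cell genes 6 were negative (median -0.04). All 9 plasma cell genes had negative differences (median -0.38), with summed levels of 7760 to 24700 CPM in GF-AOMS, against 13030 to 24050 CPM in GF-AOM. All 9 endothelial genes were negative (median -0.20), with sums of 154.8 to 199.3 CPM in GF-AOMS, against 171.9 to 286.8 CPM in GF-AOM. Fibroblast genes were negative in 7 of 8 (median -0.16, sums of 751.9 to 1404 CPM in GF-AOMS, against 893.3 to 1330 CPM in GF-AOM), and epithelial genes positive in 8 of 10 (median 0.10, sums of 7127 to 10150 CPM in GF-AOMS, against 6231 to 8929 CPM in GF-AOM). No marker of these lists passed, and their part in the members' differences was not tested.

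GF-AOM was next set against Control. All 10 members had higher fitted levels in GF-AOM, and none passed the test over all genes. The largest differences were those of P2ry13 and the C1q genes, and the smallest that of Csf1r.

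P2ry13 lay at 5.79, 6.39 and 11.4 CPM in GF-AOM, against 2.29, 4.83 and 7.80 CPM in Control, and 2 GF-AOM libraries were above all of Control. Its log2 difference was 0.66 (SE 0.27, edgeR adjusted p = 0.273). Cd14 lay at 30.0, 37.6 and 52.2 CPM in GF-AOM, against 21.4, 25.4 and 39.2 CPM in Control, with 2 GF-AOM libraries above all of Control and a difference of 0.45 (SE 0.20, edgeR adjusted p = 0.30). For both genes all 6 GF-AOM libraries were above the Control mean.

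C1qb lay at 76.8, 119.5 and 215.3 CPM in GF-AOM, against 42.4, 95.5 and 105.8 CPM in Control, and 4 GF-AOM libraries were above all of Control. The difference was 0.56 (SE 0.28, edgeR adjusted p = 0.333), and C1qc (0.56) and C1qa (0.52) were alike. Without GF-AOM replicate 6 the difference of C1qb was 0.34, and without Control replicate 4 it was 0.42.

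Csf1r, in contrast, averaged 81.2 ± 7.31 CPM in GF-AOM, against 75.1 ± 25.8 CPM in Control (SD, n = 6 each), a difference of 0.11 (SE 0.19, edgeR adjusted p = 0.756). Control libraries, at 38.4 to 110.7 CPM, spanned all of the GF-AOM values. Mrc1 had 0.23 (SE 0.26), Cd68 0.28 (SE 0.24), Adgre1 0.46 (SE 0.35) and Lyz2 0.51 (SE 0.41), with overlapping groups. Their adjusted p ran from 0.463 (Adgre1) to 0.622 (Mrc1).

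In this comparison 0 of 10 members passed by edgeR, beside 0.00918% of all genes, and 2 had an unadjusted p under 0.05, both higher, beside 15.7% of all genes (5.98% higher). The median was 0.48, beside -0.00 over all genes, and 10 of 10 were positive, beside 49.5% of all genes. As most members varied together over the libraries, these counts are not of independent genes. DESeq2 called 284 genes (2.66%) and limma 0, with no member among them. The median was 0.24 without GF-AOM replicate 6, and 0.12 with the libraries' dependence of level on gene length (the length slope) in the model. Without the 4 Control libraries that lack the Hox13 signal, a fit chosen after seeing the data, the median was 0.16. In that fit Cd14 had 0.01, Cd68 0.00, P2ry13 0.27 and C1qb 0.36, and Lyz2 had -0.14.

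Of the other macrophage genes 17 of 20 were positive (median 0.64), among them Cx3cr1 at 22.9 ± 6.21 CPM in GF-AOM, against 13.3 ± 4.39 CPM in Control (0.78, SE 0.24, edgeR adjusted p = 0.165) and Gpnmb, a gene of lysosome-rich macrophages, at 1.10 (adjusted p = 0.219). In the CSF1 receptor axis 10 of 19 genes were negative (median -0.05), with Cebpa at -0.46 (adjusted p = 0.158). Il34, of the same list, had a difference of 0.67 (SE 0.17, edgeR adjusted p = 0.0987). Its values did not overlap between the groups, beside 0.303% of all genes that separated in that direction. Of 14 measured genes of monocyte recruitment 10 were positive and 4 negative (median 0.53). Among them the leukocyte adhesion gene Vcam1 had 51.0 ± 19.0 CPM in GF-AOM, against 23.4 ± 10.7 CPM in Control (1.12, adjusted p = 0.0987). Cx3cl1 had -0.68 (adjusted p = 0.187). In the lipopolysaccharide receptor pathway 10 of 15 genes were negative (median -0.06), with the bacterial lipoprotein receptor gene Tlr2 at -0.76 (adjusted p = 0.231). Of other complement genes 13 of 17 were negative (median -0.11), with C2 at -0.59 (adjusted p = 0.225), although C1q genes had positive differences. No gene of these lists passed.

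Markers of some other cell types had differences mostly of 1 sign here as well. All 10 pan-leukocyte genes had positive differences in GF-AOM against Control (median 0.24), and their summed level was 342.3 to 814.5 CPM in GF-AOM and 218.4 to 828.6 CPM in Control. Plasma cell genes were positive in 8 of 9 (median 0.86), with sums of 13030 to 24050 CPM in GF-AOM and 2775 to 14800 CPM in Control. Epithelial genes were negative in 8 of 10 (median -0.39), with sums of 6231 to 8929 CPM in GF-AOM and 8760 to 13780 CPM in Control. No marker of these lists was at 0 or passed the test, and their part in the members' differences was not tested.

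For GF-AOMS against Control, Cd14 had the smallest p of the members. It lay at 34.0, 47.1 and 67.1 CPM in GF-AOMS, against 21.4, 25.4 and 39.2 CPM in Control, and 5 of 6 GF-AOMS libraries were above every Control library, the exception being replicate 1. The log2 difference was 0.74 (SE 0.20, interval 0.33 to 1.16, edgeR), a fold of 1.67, and the adjusted p of 0.0886 missed the threshold. It passed with DESeq2 (0.75, adjusted p = 0.0167), without Control replicate 2 (0.85, adjusted p = 0.0262) and without the 5 libraries whose TMM factor was under 0.9 (0.98, adjusted p = 0.0345). The range of its adjusted p over all alternatives was 0.0167 to 0.999.

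Cd14 moved with the distal colon genes among the Control libraries. Control replicates 1 and 2, which carry the Hox13 signal, had 39.2 and 38.7 CPM, and Control replicates 3 to 6, which lack it, had 22.8, 22.4, 28.1 and 21.4 CPM. Every GF-AOMS and GF-AOM library carries the signal. Without those 4 Control libraries the Cd14 difference was 0.31 in GF-AOMS against Control, and with colon position as a term in the model it was 0.44 (adjusted p = 0.976). The term leaves few Control libraries to carry the group, and colon position and group cannot be told apart for Control replicates 3 to 6.

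The remaining members had log2 differences between -0.35 (Mrc1, SE 0.26) and 0.56 (Lyz2, SE 0.41), all with adjusted p above 0.49. Csf1r averaged 63.3 ± 12.4 CPM in GF-AOMS, against 75.1 ± 25.8 CPM in Control (-0.25, SE 0.19), and P2ry13 averaged 4.24 ± 1.12 CPM in GF-AOMS, against 4.67 ± 1.99 CPM in Control (-0.14, SE 0.27). The C1q genes had 0.17 (C1qc) to 0.24 (C1qa), and without GF-AOMS replicate 2 these were -0.10 for C1qc and -0.10 for C1qa. By edgeR 0 of 10 members passed, beside 0.734% of all genes, 1 (Cd14, higher) had an unadjusted p under 0.05, beside 16.2% (6.93% higher), and limma called 0 members, beside 0.174%. DESeq2 called 1 member, beside 3.44%. The median was 0.05, beside 0.01 over all genes, and 5 of 10 were positive, beside 51.0%. The sign of the median was not stable, with -0.13 without GF-AOMS replicate 2, -0.12 without Control replicate 4, -0.21 with the length slope in the model and -0.14 without the 4 Control libraries that lack the Hox13 signal. In no comparison did the values of any member separate the groups without overlap, beside 0.0551% (higher) and 0.00918% (lower) of all genes in GF-AOMS against GF-AOM, 0.303% and 0.459% in GF-AOM against Control, and 0.257% and 0.541% in GF-AOMS against Control. This comparison shares its libraries with the other 2, so its values are not independent of them.

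Among other genes in this comparison, 15 of 20 other macrophage genes were positive and 5 negative (median 0.25). Their differences ran from -0.94 (Folr2, edgeR adjusted p = 0.30) to 1.08 (Tyrobp, adjusted p = 0.315). The lysosomal protease gene Ctss had 151.7 ± 26.9 CPM in GF-AOMS, against 189.2 ± 23.3 CPM in Control (-0.32, adjusted p = 0.254). Of 6 measured genes on the monocyte list 3 were positive and 3 negative (median -0.11). Their highest difference was that of S100a4, at 30.8 ± 22.5 CPM in GF-AOMS, against 11.5 ± 3.23 CPM in Control (1.42, adjusted p = 0.071). The lowest was that of F13a1 (-0.73, adjusted p = 0.199). In the CSF1 receptor axis 10 of 19 genes were positive and 9 negative (median 0.01). The lowest was Cebpa, a transcription factor gene of myeloid and epithelial cells. It had 42.4 ± 4.38 CPM in GF-AOMS, against 63.8 ± 15.2 CPM in Control (-0.59, adjusted p = 0.0627). Il34 had 0.41 (adjusted p = 0.254) and Lyn 0.33 (adjusted p = 0.267). In the lipopolysaccharide receptor pathway 11 of 15 genes were negative (median -0.13), among them Tlr4 (-0.37, adjusted p = 0.275), while Il1b had 1.34 (adjusted p = 0.212). No gene of these lists passed.

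Because the difference of Cd14 had the opposite sign to that of most members in the smoke comparison, ratios within a library were formed, with no test because the pairs were chosen with results known. Cd14 over Csf1r was 0.588, 0.710 and 1.02 (lowest, median, highest) in GF-AOMS, against 0.360, 0.464 and 0.631 in GF-AOM and 0.206, 0.444 and 0.585 in Control. The GF-AOMS values did not overlap those of Control, by a small margin, and overlapped those of GF-AOM through GF-AOM replicate 5. How many other gene pairs have ratios that separate these groups was not computed, so the separation describes this chosen pair only. Control replicates 1 and 2, which carry the Hox13 signal, had 0.546 and 0.530. Control replicates 3 to 6, which lack it, had 0.206, 0.585, 0.290 and 0.358. Cd14 over Mrc1 was 0.762, 1.74 and 2.16 in GF-AOMS, against 0.541, 0.699 and 1.45 in GF-AOM and 0.371, 0.746 and 1.24 in Control. Here GF-AOMS replicates 3 to 6 were above every library of the other groups, and replicates 1 and 2 were inside their range. Cd14 over the sum of the C1q genes overlapped between all groups. It was 0.0778, 0.201 and 0.265 in GF-AOMS, against 0.0625, 0.120 and 0.156 in GF-AOM and 0.0840, 0.113 and 0.187 in Control. P2ry13 over the sum of the C1q genes averaged 0.0161 ± 0.00543 in GF-AOMS, 0.0211 ± 0.00435 in GF-AOM and 0.0185 ± 0.00331 in Control (SD, n = 6 each), and the groups overlapped.

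**Figure D4:**
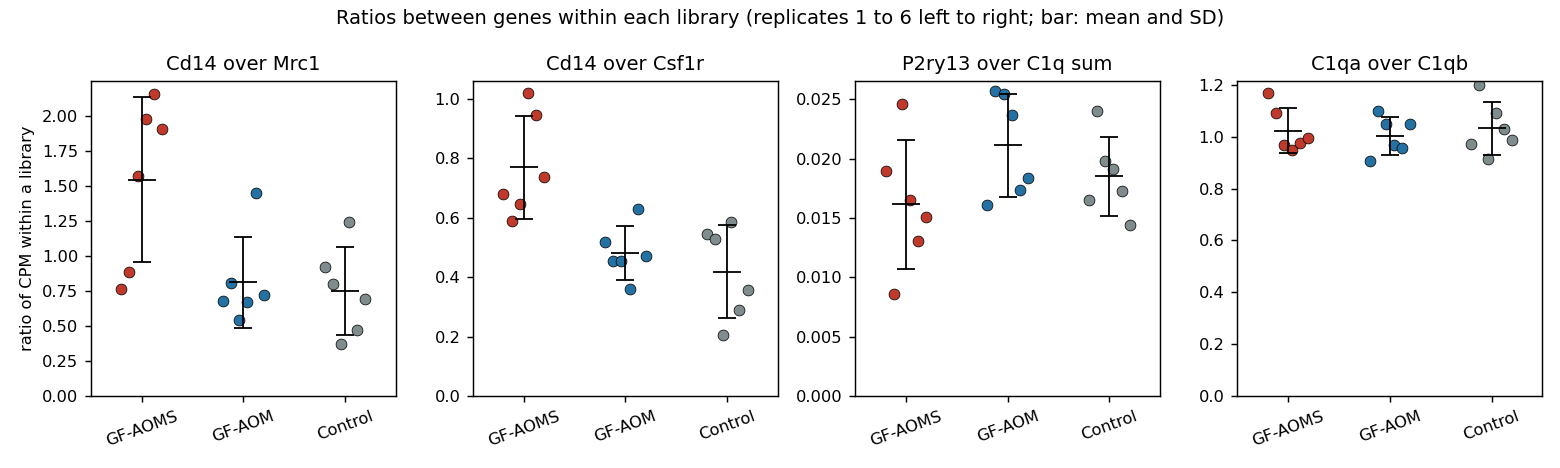
Ratio of CPM between genes within each library (vertical axis from 0) for GF-AOMS, GF-AOM and Control, replicates 1 to 6 from left to right, with mean and SD. Cd14 over Csf1r, a pair chosen with results known, was at least 0.588 in GF-AOMS and at most 0.585 in Control. The means of C1qa over C1qb were 1.02 in GF-AOMS, 1.01 in GF-AOM and 1.03 in Control.

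Libraries also differed in how level depended on gene length, and several members followed that. The length slope is the change in log2 CPM, relative to the gene means, per doubling of the gene length implied by count and FPKM, and it ran from -0.3063 in GF-AOMS replicate 2 to 0.1941 in Control replicate 5. Lyz2 had r = -0.88 and rho = -0.80 with the slope (n = 18, permutation p adjusted over 30 relations 0.0003 and 0.003), and r = -0.74 without the 2 farthest libraries. Within groups it was -0.89 in GF-AOMS, -0.90 in GF-AOM and -0.78 in Control. C1qa had r = -0.75 and rho = -0.61 (adjusted permutation p = 0.0039 and 0.088), and r = -0.48 without the 2 farthest libraries, so that relation rests in part on them. C1qb (r = -0.67), C1qc (-0.64) and Adgre1 (-0.65) passed by r (adjusted permutation p = 0.015, 0.017 and 0.015), but not by rho (0.19 each). With the TMM factor, Lyz2 (r = -0.79), C1qa (-0.65) and Adgre1 (-0.62) passed by r (adjusted permutation p = 0.0036, 0.015 and 0.019), but not by rho (0.12, 0.17 and 0.18). With the slope, Csf1r had r = 0.03 and rho = 0.17 (adjusted permutation p = 0.95 and 0.62), and Cd14 had r = -0.28 and rho = -0.32 (0.39 and 0.43).

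**Figure D5:**
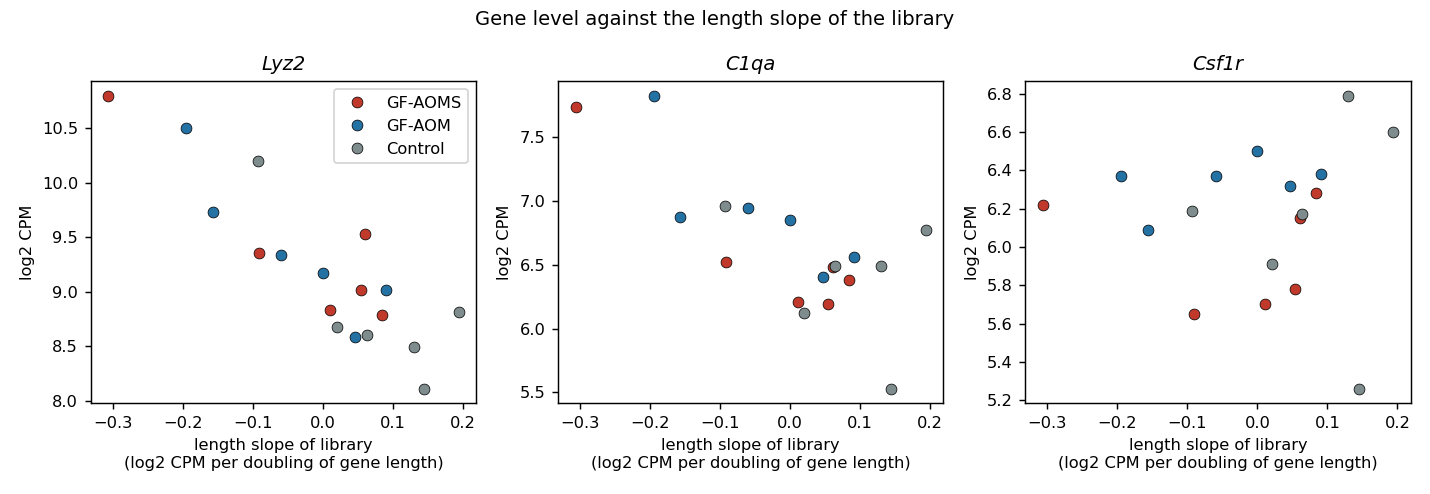
Log2 CPM of Lyz2, C1qa and Csf1r (vertical axes) against the length slope of the library (horizontal axis, log2 CPM per doubling of gene length), with 1 point per library and colours for GF-AOMS, GF-AOM and Control. Lyz2 was high where the slope was low (r = -0.88), C1qa less so (r = -0.75), and Csf1r showed no trend (r = 0.03).

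With the slope as a term in the model, the GF-AOMS against GF-AOM values barely moved, with P2ry13 at -0.74, Mrc1 at -0.59 and C1qa at -0.29. Against Control they did move. In GF-AOM against Control C1qa had 0.08, C1qb 0.19, Lyz2 -0.08 and Adgre1 -0.06, while Cd14 had 0.44 and P2ry13 0.45. In GF-AOMS against Control Cd14 kept 0.74 (adjusted p = 0.104), and Lyz2 had 0.00. Slope and group were not independent here, since Control replicates 3 to 5 had the 3 highest slopes, and the part of the slope in these results was not tested.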

How the data were processed

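Total RNA from colorectal tissue was depleted of ribosomal RNA and made into strand-specific libraries, per the labels' protocols. The deposited table holds read counts per gene and FPKM values of the authors for 18 libraries, per the file headers. Per the submitters' processing notes, featureCounts, DESeq2 and build GRCm39 were used, with no versions, and the aligner is not given in the sources used here. Positions match GRCm38 instead: 10890 genes were found in the GENCODE M21 annotation, 93.14% of them with both ends within 100 bases. All genes in the table reached an FPKM of 1 in 15 or more libraries, and genes below that are not analysed here.

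All 10897 genes were fitted with edgeR 4.0.16 (R 4.3.3): TMM scaling, quasi-likelihood test, all 18 libraries in a single fit with 15 residual degrees of freedom, no covariates, two-sided, Benjamini-Hochberg over all genes, threshold 0.05. The fit was tested on simulated data. Log2 CPM used a prior count of 2. Permutation tests used 100000 draws, so the smallest p they can give is 1e-05. Alternatives were DESeq2 1.42.0, limma 3.58.1 on log2(FPKM + 1) and log2(FPKM + 0.1), other scalings, a stricter filter (FPKM of at least 5 in 6 libraries), only the 2 groups compared, a replicate block, terms for colon position (mean log2 CPM of Hoxa13 and Hoxb13) and length slope, and leaving out libraries.

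The members and the 24 other lists were chosen with earlier results of these data known. From each other list up to 3 genes with the smallest p per comparison could be named, and for each member the 5 genes with the highest r over libraries, leaving out clone names, pseudogenes and immunoglobulin or T cell receptor segments. Only 1 of 10 dendritic cell, 1 of 10 neutrophil and 2 of 7 B cell genes were in the table.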

Additional observations from a re-analysis of the deposited data

Results flagged for a closer look

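In 8 of the 30 combinations of a gene and a group, the highest library lay further from the rest than Dixon's criterion for 6 values allows (gap over range above 0.625). Chance flags about 1 in 20 sets of independent values. The 8 come from 3 libraries, with 5 in GF-AOMS replicate 2, 2 in GF-AOM replicate 6 and 1 in Control replicate 2, and from genes that vary together, so they are not independent of each other. GF-AOMS replicate 2 had 212.5 CPM of C1qa, 195.4 CPM of C1qb, 155.3 CPM of C1qc, 60.5 CPM of Adgre1 and 1751.7 CPM of Lyz2, where the next library of its group had 91.4, 91.3, 76.5, 32.9 and 736.9 CPM of these genes. This library also had the lowest TMM factor (0.7206) and the lowest length slope (-0.3063), and their part in these values was not tested. GF-AOM replicate 6 had 225.9 CPM of C1qa and 215.3 CPM of C1qb, above 122.6 and 128.4 CPM in the next library. Control replicate 2 had 1211.9 CPM of Lyz2, above 450.1 CPM in the next.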

How the results depend on the processing

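Of 927 recomputed log2 differences of the 10 genes, 899 kept their direction and side of the threshold, 3 (all Cd14 in GF-AOMS against Control) passed it, and 25 had the opposite sign. P2ry13 was not in the stricter filter. The members called were 0 in every other setting, and 1 in GF-AOMS against Control with DESeq2, without libraries with a TMM factor under 0.9 and without Control replicate 2 (range 0 to 1 over fits that leave out a library). The causes were not tested.

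Genes called in GF-AOMS against GF-AOM were 0, but 3 with DESeq2, 2 with the length slope and 1 without the low-TMM libraries (0 to 0 over fits that leave out a library). In GF-AOM against Control they were 1, but 284 with DESeq2, 132 without the low-TMM libraries, 2 with the replicate block, and 0 with limma at either pseudocount, library totals, only the 2 groups compared or colon position (0 to 356 leaving out a library). In GF-AOMS against Control they were 80, but 375 with DESeq2, 277 without the low-TMM libraries, 47 with upper-quartile scaling, 33 with the replicate block, 28 with library totals, 20 and 19 with limma (pseudocounts 0.1 and 1), 6 with length slope, and 0 with only the 2 groups compared, colon position or the 4 Control libraries left out (0 to 493 leaving out a library, with 0 without Control replicate 3 and 493 without Control replicate 2).

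Signs turned as follows. In GF-AOMS against GF-AOM Lyz2 was -0.15 with the replicate block (-0.39 to 0.36 leaving out a library). In GF-AOM against Control Adgre1 was -0.06 and Lyz2 -0.08 with length slope, Lyz2 was -0.14 without the 4 Control libraries, and Csf1r ran from -0.02 to 0.25 leaving out a library. In GF-AOMS against Control, C1qa, C1qb and C1qc were -0.20, -0.13 and -0.17 with length slope. C1qa and C1qc were -0.02 and -0.01 without the low-TMM libraries, and C1qa, C1qc and Lyz2 were -0.05, -0.07 and -0.08 without the 4 Control libraries. Leaving out a library gave -0.10 to 0.36 for C1qa, -0.06 to 0.31 for C1qb, -0.10 to 0.26 for C1qc, -0.24 to 0.03 for Cd68, -0.28 to 0.07 for P2ry13 and -0.39 to 0.03 for Adgre1.

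Replicate numbers gave no steady pairing of the libraries, as same-numbered deviations correlated at -0.619 to 0.517. In GF-AOMS against Control 3 of 6 libraries correlated best with their own number, against 0 of 6 in the other comparisons. With so few libraries these values cannot settle whether numbers were paired in part. The replicate block called 0 members in every comparison.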
